A study of Mus musculus with 9 samples.

Results

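The peaks described here are places where the transcription factor YY1 gave a ChIP-seq peak in untreated mouse B cells and no called peak in the cultured cells of the same series. They were chosen by rule: a naive peak qualified if it overlapped no mock peak and no tatcre peak by 1 bp or more, with chromosome M left out. The rule took 1545 of 2348 naive peaks, 65.8% (95% exact binomial interval 63.8 to 67.7%, counting error only). These are called naive-only peaks below. Since the peak lists themselves chose them, their absence from mock and tatcre cells is a description and carries no test.

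The cells were CD23-selected follicular B cells from spleens of C57BL/6 mice with a floxed Yy1 gene (yy1 f/f), the genotype of every group. Per the series text, the cells of 3 mice were divided in 3 ways. Naive cells received no reagent, mock cells a mock treatment, and tatcre cells TAT-CRE, a cell-permeable Cre recombinase that deletes the floxed gene. Activation with LPS plus IL-4 followed in the mock and tatcre cells, for 72 hours in 10% serum by the series text and 48 hours in 20% serum by the sample text. The sample text also lists the TAT-CRE treatment and the culture for naive cells; here the groups follow the titles and the series text. Neither animal age nor the pooling of mice for ChIP is stated in the sources used here. ChIP-seq has 1 library for each of the 3 conditions, so no peak difference has a replicate check, and naive and mock cells differ in culture, stimulation, mock treatment and library, which cannot be told apart.

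YY1 is a zinc finger protein that binds short DNA motifs built around a CCAT core, most often close to gene starts. It can act as an activator or a repressor and works with chromatin remodelling, Polycomb and looping complexes. In B cells it is known for roles in development, in immunoglobulin locus contraction and in class switching.

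The build of the peak files had to be settled first. The submitters' processing notes name mm10, but 10 naive-only peaks on chromosomes 1, 5, 7, 8 and 17 end past the last base of the mm10 chromosome. So do 5 mock and 8 tatcre peaks. No peak of any list runs past the chromosome lengths of mm9, the preceding mouse build. Chromosome 7, for example, has 145441459 bases in mm10 and 152524553 in mm9. Peak positions are therefore given as mm9, with starts counted from 1. No mm9 genome or annotation was used here, and positions were not converted.

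Few gene starts at naive-only peaks carried the YY1 motif, while many at peaks with a mock peak did. Chromosome 16 was used, because most naive peak positions there met gene starts of the newer build without conversion. Both GCCATNTT and GCCGCCAT were searched on both strands in RefSeq GRCm38.p6 windows of 250 bases before to 50 after each gene start. GCCATNTT is called the core motif here and GCCGCCAT the extended GC-rich form. The second does not contain the first, so a gene such as Snap29 can match it alone. They overlap where a site reads GCCGCCAT followed by N, T and T. The sites at naive-only peaks, given because they are all the matched starts but one, read 5′ to 3′ along the gene's strand with the matching letters in capitals.
Alg1: gccggccggccAAGATGGCagcgtcctgcg
Dlg1: agctccaggGCCGCCATCTTggcggaaag
Rabl3: gaaatcgtggcAAGATGGCgtccctggatc
Ubxn7: gcggcggcggtAAGATGGCtgcccacgg
Cdip1: cggctgtacgaGCCATTTTcctcggggtat
Snap29: gggccccagcaGCCGCCATcacagcgcacg
The peaks at these genes are chr16:5233608-5233876, chr16:31663796-31664022, chr16:37539781-37540186, chr16:32332222-32332520, chr16:4790266-4790428 and chr16:17406050-17406304, in the same order. The Rabl3 site also lies in the window of Gtf2e1, the neighbouring start on the opposite strand and the 1 matched gene not printed. In Alg1, Rabl3 and Ubxn7 the match begins 26, 18 and 33 bases after the gene start. In Dlg1, Gtf2e1, Cdip1 and Snap29 it lies upstream, at -54, -130, -143 and -209. Both sets of letters were in the windows of 9 of 40 genes at naive peaks with a mock peak (22.5%) and of 1 of 45 at naive-only peaks (2.22%). For comparison 3 of those 9 are given, chosen after their sequences were seen because both sets form 1 site just after the gene start.
Yars2: gtgtcccgcAAGATGGCGGCgcccatgct
Ube2l3: accagatccAAGATGGCGGCcagcaggag
Nagpa: caccaatccAATATGGCGGCgcccagggg
In these 3 genes the match begins 16, 28 and 27 bases after the gene start, whereas joined sites in Hacd2, Son and Ubn1, also at peaks with a mock peak, begin at -133, -161 and -221.

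Of 45 genes at naive-only peaks 6 had the core motif (13.3%, interval 5.05 to 26.8%) and 2 the extended form (4.44%, 0.543 to 15.1%). Of 40 genes at naive peaks with a mock peak 20 had the core motif (50%, 33.8 to 66.2%) and 10 the extended form (25%, 12.7 to 41.2%). The other 818 genes of chromosome 16 had them in 4.89% and 1.22% of cases, and all 27025 genes of the table in 6.96% and 2.6%. Counted by peak, 6 of 37 naive-only peaks at gene starts had either motif in the window (16.2%, 6.19 to 32%), against 19 of 28 with a mock peak (67.9%, 47.6 to 84.1%). The intervals of the 2 classes do not overlap for the core motif or by peak, and overlap for the extended form. Intervals by gene treat genes as independent, although neighbouring starts can share 1 site. Rabl3 and Gtf2e1 do so at a naive-only peak, and Atp5j and Gabpa at a peak with a mock peak. The differences have no test over samples, as each list is 1 library. The window is fixed on the gene start and need not cover the whole peak, so a start without a match says only that these letters are not in it.

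**Figure D1:**
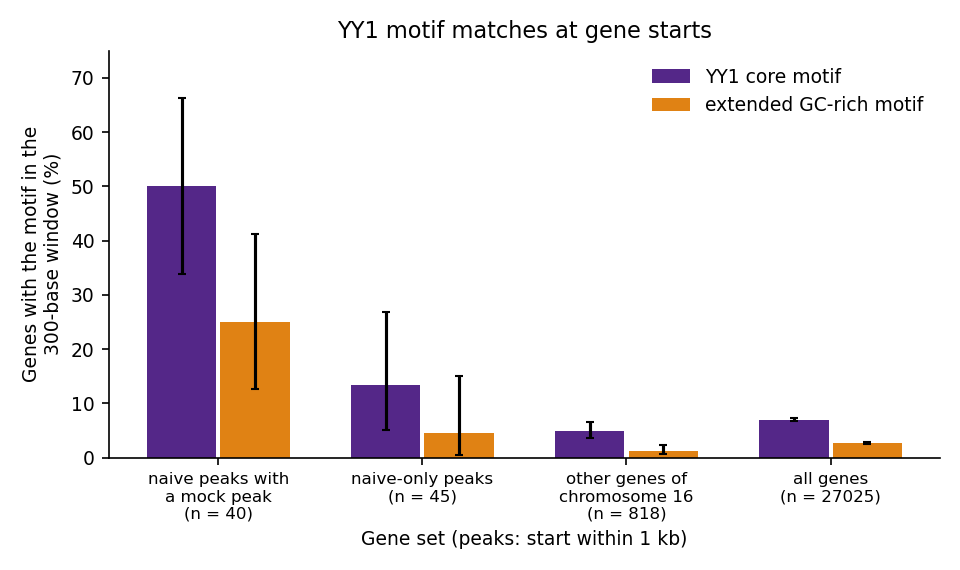
Percent of genes with a match to the core motif (purple) or the extended GC-rich form (orange) in the 300-base window around the gene start (y axis), for genes at 2 classes of chromosome 16 peaks, other genes of that chromosome and all genes of the table (x axis, with n). Error bars are 95% exact binomial intervals. The core motif is in 50% of genes at peaks shared with mock, 13.3% at naive-only peaks and 4.89% of the other genes.

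The deposited peak files hold positions only, with no score, fold or p-value, and the number of reads behind each list is unknown. The naive list has 2349 peaks, the mock list 999 and the tatcre list 2069. Of the naive peaks 791 overlapped a mock peak (33.7%) and 40 a tatcre peak (1.7%). Seen from the shorter list, 804 of 999 mock peaks overlapped a naive peak (80.5%), so most mock positions were also naive positions. Only 43 of 2069 tatcre peaks overlapped a naive peak (2.08%) and 36 of 999 mock peaks overlapped a tatcre peak (3.6%). RNA-seq, with 22729187 to 28230727 gene counts in each of 3 mock and 3 tatcre libraries, showed the deletion. Yy1 had 100, 112 and 108 CPM (counts scaled to library size) in the mock libraries and 0.984, 1.5 and 2 CPM in the tatcre libraries. It fell by 6.15 on the log2 scale, 71-fold (SE 0.17, adjusted p = 1.7e-08 by edgeR's quasi-likelihood test, Benjamini-Hochberg). The summed CPM of 8 B cell markers was 10300 to 12300 per library, while the myeloid, NK and erythroid sums were at most 2.3, 0.209 and 0.125. The sum of 5 T cell markers was 14.5 to 20.6 in mock and 9.02 to 13 in tatcre libraries, nearly all of it Lck, which B cells also express. The sum of 3 plasma cell markers, mostly Jchain, was 121 to 167 in mock and 104 to 121 in tatcre libraries; its part in the RNA results was not tested.

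Many naive-only peaks were narrow. Their median width was 238 bp (quartiles 175 and 374 bp, range 163 to 1846 bp), against 334 bp (267 and 507 bp) for naive peaks with a mock peak. The narrowest peaks of the naive list measure 163 bp, and 310 naive-only peaks (20.1%) have exactly that width, against 19 of the 791 with a mock peak (2.4%). Width can itself set the chance of an overlap, so this contrast is not independent of the rule. The share of naive-only peaks was 94.2% among the 329 naive peaks of 163 bp and 84% among 263 of 164 to 199 bp. It was 66.1% at 200 to 299 bp and 50.3% at 300 to 499 bp. Of 379 naive peaks of 500 to 999 bp 209 were naive-only (55.1%, interval 50 to 60.2%). The lowest share, 23 of 59, was that of peaks of 1000 bp or more (39%, interval 26.5 to 52.6%). Broad regions were thus also present among the naive-only peaks.

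**Figure D2:**
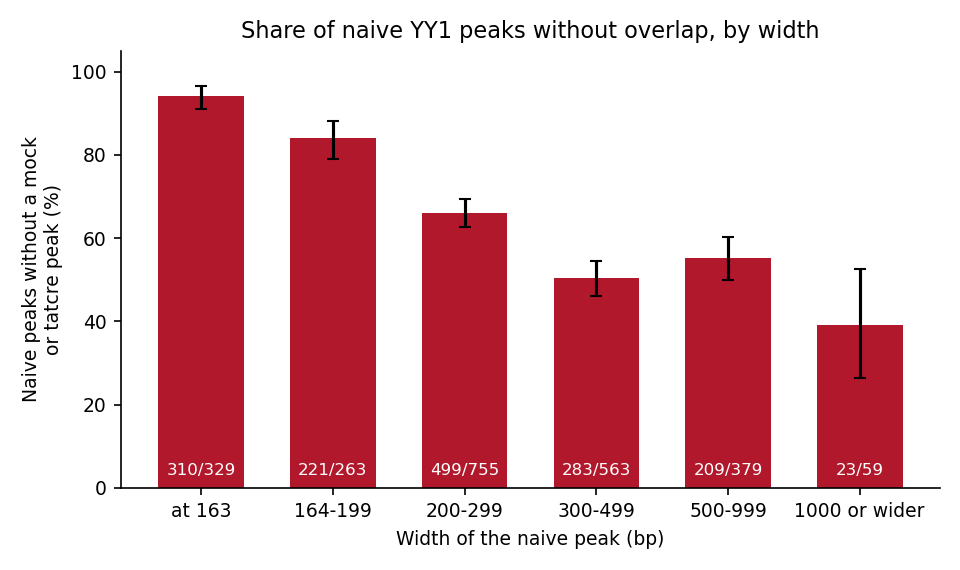
Share of naive YY1 peaks that overlap no mock and no tatcre peak (y axis, percent) in 6 width classes of the naive peak (x axis, bp). Bars give the share with its 95% exact binomial interval and the numbers inside give naive-only over all naive peaks. The share goes from 94.2% at 163 bp to 50.3% at 300 to 499 bp, is 55.1% at 500 to 999 bp, and is lowest, 39%, at 1000 bp or wider.

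The widest naive-only peak was chr19:5801656-5803501 at 1846 bp, 109234 bp from the nearest mock peak. The next were chr17:34255679-34257478 at 1800 bp, chr6:128788240-128789729 at 1490 bp and chr11:104302956-104304430 at 1475 bp. All 10 of the widest lay at least 24609 bp from the nearest mock or tatcre peak, so none of these 10 bordered a called peak of another list.

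Few members lay near the limit of the rule. The nearest was chr7:16531222-16531384, 5 bp from a mock peak, followed by chr14:51427532-51427697 at 24 bp. The third, chr2:181667146-181667308, lay 83 bp from a tatcre peak, and the fourth, chr11:69485017-69485223, already lay 763 bp from a mock peak. On the other side of the limit, the naive peak chr3:60277660-60277822 shared 6 bp with a mock peak, and chr2:164323044-164323206 shared 18 bp. Within 1000 bp of a mock or tatcre peak there were 5 of 1545 members (0.324%), and within 10000 bp 69 (4.47%). The median gap to the nearest peak of either list was 164000 bp, and to the nearest mock peak 438000 bp.

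The members were mostly solitary, and so were the peaks compared with them. Another naive-only peak lay within 10000 bp of 51 members (3.3%) and within 100000 bp of 415 (26.9%). Within their own class, the shares were 4.8% and 24.8% for naive peaks with a mock peak. For tatcre peaks they were 2.56% and 17.1%. The densest group held 5 members in 68265 bp at chr7:80686204-80754468. Groups of 4 lay at chr19:8798384-8876810 and chr11:120434743-120534402. No other naive peak lay inside these 3 groups. The most isolated member was chr16:70314289-70314520, 2727871 bp from any other peak of the 3 lists.

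Naive-only peaks were dense on gene-rich chromosomes. Chromosome 11 held 154 of them, 1.26 per Mb, and chromosome 19 held 71, 1.16 per Mb. Chromosome 17 followed with 0.861 per Mb. At the other end, chromosome X held 39 (0.234 per Mb) and chromosome 1 held 81 (0.411 per Mb). Across 20 chromosomes, peaks per Mb and RefSeq protein-coding genes per Mb had a Pearson correlation of 0.81 (Spearman 0.86). For naive peaks with a mock peak the values were 0.87 and 0.84, and for tatcre peaks 0.53 and 0.56. Points of one list share a single library, so these values are descriptions. Chromosome 7 stood apart with 13.3 genes per Mb but 0.629 naive-only peaks per Mb.

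**Figure D3:**
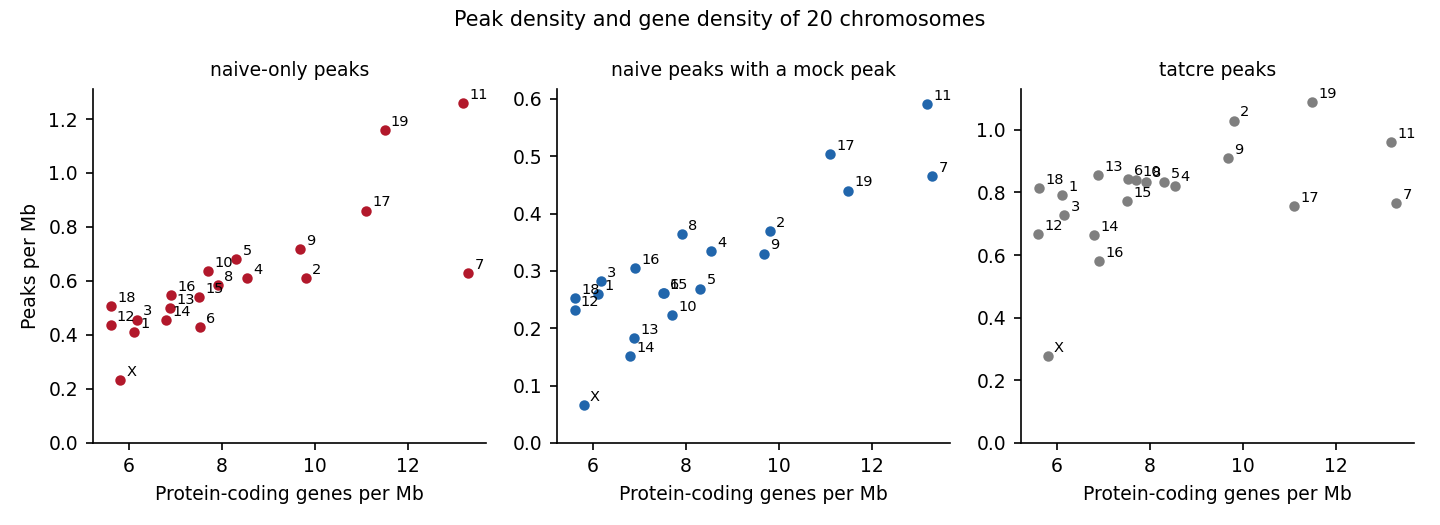
Peaks per Mb (y axis, separate scale in each panel) against RefSeq protein-coding genes per Mb (x axis) for chromosomes 1 to 19 and X. The panels show naive-only peaks, naive peaks with a mock peak and tatcre peaks, with 1 point per chromosome. Chromosomes 11 and 19 have the most naive-only peaks per Mb (1.26 and 1.16) and chromosome X the fewest (0.234).

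Whether the members lie at gene starts was examined without converting positions, by sliding the peaks along RefSeq gene starts of GRCm38 (the assembly behind mm10). On each chromosome the shift at which most naive peaks with a mock peak met a gene start within 500 bp was chosen from those peaks alone, and the naive-only peaks were then counted at it. On 19 chromosomes, 430 of 1499 naive-only peaks met a gene start (28.7%, interval 26.4 to 31%), against 327 of 768 naive peaks with a mock peak (42.6%). Of tatcre peaks 37 of 1995 did (1.85%). A chromosome can need several shifts, so these shares can miss peaks that lie at gene starts. On some chromosomes the chosen shift was barely set apart for the peaks that chose it. On chromosome 4 another shift also took 12 of 52, and on 13, 14 and X the best took 5, 6 and 4 against 4, 5 and 3. On the 7 chromosomes where 1 shift took at least 50% of the peaks with a mock peak, 213 of 487 naive-only peaks met a gene start (43.7%, interval 39.3 to 48.3%). There 154 of 248 with a mock peak did (62.1%), and 12 of 621 tatcre peaks (1.93%). The share with a mock peak is favoured because those peaks chose the shift. At other shifts, by chromosome, the median share at a gene start was 0 to 1.95% for naive-only peaks and 0 to 1.71% for tatcre peaks. On chromosomes 1, 12, 13, 14 and X, none of them among the 7, some other shift took more naive-only peaks than the chosen one, for example 14 against 12 of 81 on chromosome 1.

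The share at gene starts did not follow width among the members of those 7 chromosomes. A gene start was met by 37 of 97 members of 163 bp (38.1%, interval 28.5 to 48.6%), by 76 of 150 of 200 to 299 bp (50.7%) and by 25 of 65 of 500 to 999 bp (38.5%). The narrowest members thus met gene starts far more often than the tatcre peaks (1.93%), which are also narrow, with a median of 153 bp.

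Chromosome 16 needed almost no shift: the best was -250 bp, and unshifted positions did as well for naive-only peaks, with 34 of 54 in both cases. At any shift more than 5000 bp from the best, at most 6 of 54 met a gene start. Genes were therefore named on this chromosome alone, without conversion. It has 98319150 bases in mm9 and 98207768 in mm10, so the builds cannot match along all of it. Its most distal naive-only peaks, chr16:94791196-94791482, chr16:96212429-96212763 and chr16:98183608-98183866, had no gene start within 1 kb. Whether their positions differ between the builds was not tested. Distances from peak to gene start are not given, since the scan resolves them only to 500 bp, and 1 chromosome need not represent the rest. On chromosome 13, by contrast, none of 60 naive-only peaks met a gene start at the chosen shift, which only 5 of 22 peaks with a mock peak had set.

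**Figure D4:**
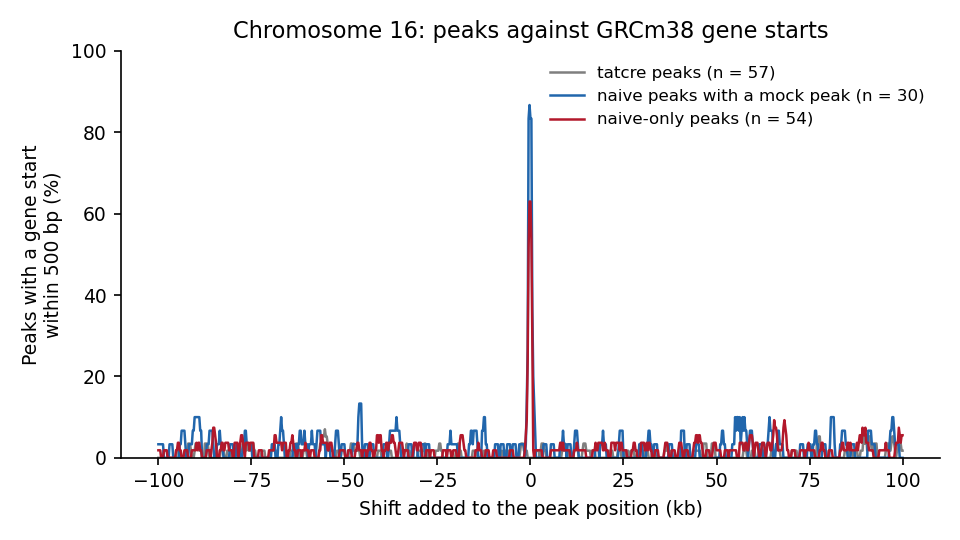
Percent of chromosome 16 peaks with a GRCm38 gene start within 500 bp (y axis) when a shift is added to every peak position (x axis, kb). Lines show 54 naive-only peaks, 30 naive peaks with a mock peak and 57 tatcre peaks. At no shift 34 of 54 naive-only peaks and none of the tatcre peaks meet a gene start.

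On chromosome 16 a gene start lay within 1 kb of 37 of 54 naive-only peaks (68.5%, interval 54.4 to 80.5%) and of 28 of 30 naive peaks with a mock peak (93.3%, 77.9 to 99.2%). None of 57 tatcre peaks had one, which allows a share of up to 5.26% by 3 counts of the total (exact interval up to 6.27%). The 37 peaks marked 45 genes, with 8 peaks at a pair of neighbouring starts. At unshifted positions 17 had no gene start, and these can include peaks whose position differs between the builds. Of the 17, 5 had the minimum width of 163 bp, as did 8 of the 37 at gene starts. By width, 8 of 13 naive-only peaks of 163 bp had a gene start within 1 kb. So did 14 of 22 of 164 to 299 bp and 15 of 19 of 300 bp or more. All 43 protein-coding genes at naive-only peaks passed the low-count filter of the RNA data (interval 91.8 to 100%), as did all 32 at naive peaks with a mock peak. Of the other protein-coding genes of the chromosome, 295 of 545 passed (54.1%). RNA of naive cells was not analysed here, so these levels are those of the cultured cells.

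The 45 genes were not tested for shared functions, and those with a well known role are given here as background, grouped by hand. Among nuclear proteins were Hira (a histone chaperone), Gtf2e1 (a subunit of general factor TFIIE), Rrn3 (an RNA polymerase I initiation factor), Ercc4 (a repair nuclease) and the zinc finger genes Zfp148 and Thap7. Mitochondrial proteins were represented by Trap1 (a chaperone), Dnm1l (the fission GTPase), Mrpl40, Atp5o, Nsun3 and Abhd10. Membrane traffic and glycosylation were represented by Ap2m1 (a clathrin adaptor subunit), Itsn1, Snap29, Snx4, Pi4ka (a phosphatidylinositol kinase) and Alg1 (a mannosyltransferase). Of the lists examined, respiratory chain and mitochondrial ribosome genes had 1 member each at these peaks, Atp5o and Mrpl40. Cytosolic ribosome, proteasome, INO80, Polycomb and cohesin genes had none there. Only chromosome 16 was read, and how many genes of each list start on it was not counted.

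RNA did not enter the choice of the peaks, so tatcre and mock cells could be compared for the genes at naive-only peaks. The comparison asks which of these transcripts differed between cells given TAT-CRE, which lost Yy1, and mock cells. Every group carries the floxed gene, so the TAT-CRE treatment and the loss of Yy1 cannot be told apart. YY1 had no called peak at these starts in the mock cells. Of 44 tested genes 9 fell, 7 rose and 28 were not called, 36.4% in all. Of all 15546 tested genes 27.1% were called, 16.3% lower and 10.8% higher. Of the 354 other tested genes of chromosome 16, 28.2% were called. Among 34 tested genes at naive peaks with a mock peak, 12 fell and 6 rose (52.9%). The median absolute log2 fold change was 0.22 at naive-only peaks, 0.37 at peaks with a mock peak and 0.31 over all tested genes. Genes at naive-only peaks ranged from -0.84 to 0.63 on the log2 scale, and those at peaks with a mock peak from -2.11 to 1.1. With upper-quartile scaling 7 fell and 9 rose, and with library size alone 7 fell and 10 rose, so the balance of directions depends on the scaling. The same held over all tested genes. Of their calls 2536 of 4215 were lower in the main fit, 2097 of 4326 with upper-quartile scaling and 1894 of 4508 with library size alone. Library size alone also raised the median over all tested genes, on the log2 scale, to 0.129 from 0.024.

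Pi4ka fell most. It had 144, 147 and 131 CPM in the mock libraries and 77.2, 74.7 and 83.9 CPM in the tatcre libraries, so every tatcre library was below every mock library (log2 fold change -0.84, SE 0.08, edgeR adjusted p = 5.3e-05). Ap2m1 had 42.5, 48.4 and 41.4 CPM in mock and 25.2, 24.7 and 28.2 CPM in tatcre libraries, again without overlap (log2 fold change -0.76, edgeR adjusted p = 3e-04). Mrpl40, of the large subunit of the mitochondrial ribosome, had 30.1, 39.5 and 33.6 against 22.6, 20.7 and 23.1 CPM. It fell 1.56-fold (edgeR adjusted p = 0.0021). N6amt1, a methyltransferase gene, fell 1.53-fold, 1810013L24Rik 1.54-fold and Ercc4 1.37-fold, each without overlap between the groups. Against 16.3% lower and 10.8% higher over all tested genes, lists of genes from all chromosomes gave these counts. Among complexes YY1 works with, 3 of 14 tested INO80 genes fell and 3 rose. That list includes Yy1, the deleted gene, which is among those that fell. Of Polycomb genes 0 of 7 fell and 1 rose, and of cohesin and CTCF genes 0 of 8 fell and 3 rose. Of the mitochondrial lists, 19 of 77 tested mitochondrial ribosome genes fell and 8 rose, and 23 of 91 respiratory chain genes fell and 8 rose. Of 49 genes on the proteasome list 14 fell and 1 rose, and of 93 on the cytosolic ribosome list 13 fell and 8 rose. The mitochondrial, proteasome and cytosolic ribosome lists were picked by the start of the gene symbol. They can therefore hold genes outside these complexes. Atp5o, an ATP synthase subunit gene, was not called, at 57.6, 61.1 and 54.4 CPM in mock and 53, 44.6 and 56.8 CPM in tatcre libraries, which overlap.

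Itsn1, an endocytic scaffold gene, rose most. It had 25.1, 25.2 and 23.1 CPM in mock and 40.1, 35.3 and 38.7 CPM in tatcre libraries, with no overlap (log2 fold change 0.63, SE 0.09, edgeR adjusted p = 0.00062). Zfp148 had 107, 115 and 119 against 145, 156 and 154 CPM and rose 1.33-fold. Abhd10 had 16.3, 17.6 and 17.9 against 23.5, 26.7 and 22 CPM and rose 1.39-fold. Cryzl1, whose start shares the peak chr16:91729405-91729567 with that of Itsn1, rose 1.42-fold. Pi4ka and Snap29 share the peak chr16:17406050-17406304 and both fell. These are 2 of the 8 peaks at a pair of starts. At Hira and Mrpl40, and at Zfp148 and 1700007L15Rik, 1 gene of the pair was called, and at the other 4 peaks neither was.

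Of the 16 calls, 9 were kept under all 12 alternative settings tried: Pi4ka, Ap2m1, Mrpl40, N6amt1, 1810013L24Rik, Ercc4, Itsn1, Zfp148 and Abhd10. The other 7 were lost under at least 1. Dnm1l (149 ± 8.16 to 190 ± 16.6 CPM, SD, n = 3 each) was lost without mock 2 (edgeR adjusted p = 0.059). Cryzl1 was lost without mock 2 or tatcre 1 (edgeR adjusted p = 0.082 and 0.063), and Gbe1, the glycogen branching enzyme gene that fell 1.45-fold, without mock 3 or tatcre 3 (0.054 and 0.051). With the replicate number as a block, Alg1 and Sod1 were lost too (edgeR adjusted p = 0.074 and 0.054). Sod1, the cytosolic superoxide dismutase gene, rose from 61.7 ± 1.03 to 76.1 ± 4.36 CPM and was lost without mock 3, tatcre 1 or tatcre 3 (edgeR adjusted p = 0.065, 0.094 and 0.058). Alg1 was lost without mock 2, tatcre 1 or tatcre 2 (edgeR adjusted p = 0.14, 0.061 and 0.089), and with upper-quartile or library-size scaling. Carhsp1 was lost under 8 of the 12 alternatives and Snap29 under 8, with edgeR adjusted p up to 0.17 and 0.19.

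Of the 10 genes with the highest mock CPM at naive-only peaks 3 were called, Pi4ka, Zfp148 and Dnm1l, against 27.1% of all tested genes. CPM also grows with transcript length, so their order is not one of molecules. Ranbp1, a Ran-binding protein gene, averaged 770 ± 91.6 CPM in the mock libraries and 657 ± 65.2 CPM in the tatcre libraries (edgeR adjusted p = 0.11). Ccdc50 had 314 ± 17.5 and 274 ± 9.98 CPM, and Cip2a 216 ± 27.7 and 248 ± 12.9 CPM. Atg3 (an autophagy enzyme), Snx4, Trap1 and Dzip3 were not called either, with log2 fold changes of 0.2, -0.2, -0.11 and 0.43.

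**Figure D5:**
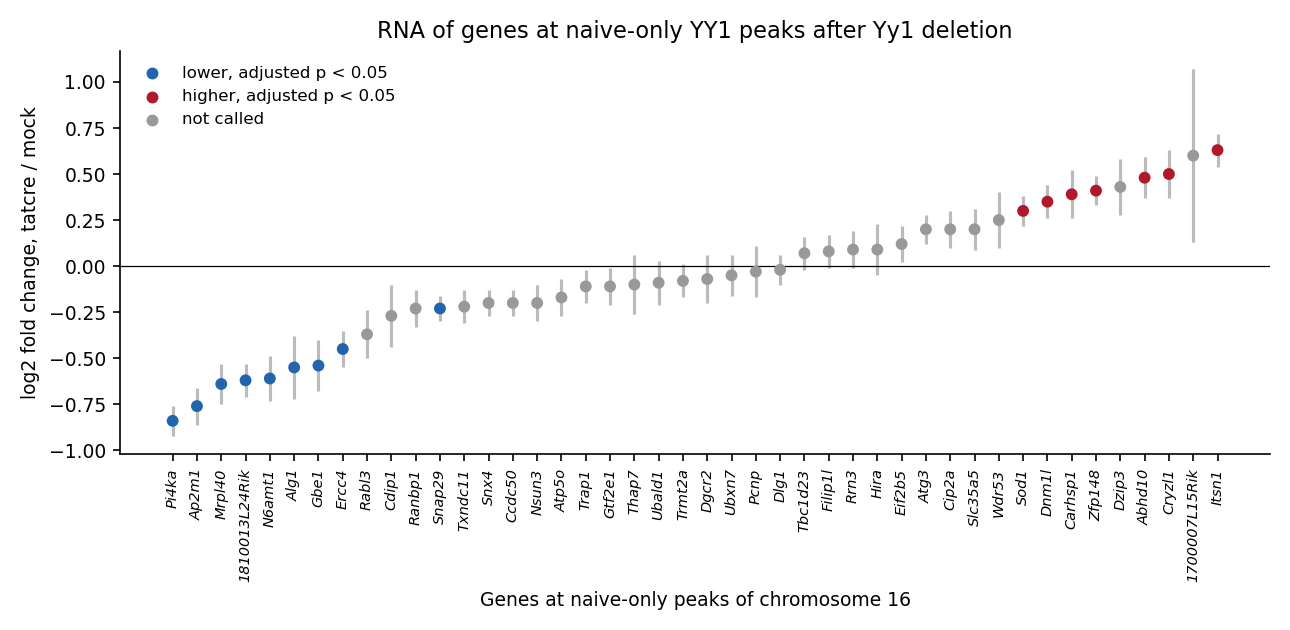
Log2 fold change of RNA in tatcre against mock cells (y axis, points with SE) for the 44 tested genes at naive-only peaks of chromosome 16 (x axis, ordered by value). Blue genes were lower and red genes higher at an edgeR adjusted p under 0.05, and grey genes were not called. Pi4ka is lowest at -0.84 and Itsn1 highest at 0.63.

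Of the genes whose windows hold a motif, Alg1 and Snap29 were called lower, and Dlg1, Rabl3, Gtf2e1, Ubxn7 and Cdip1 were not called. Dlg1, with both sets of letters as 1 site, averaged 86 ± 3.65 CPM in the mock libraries against 84.6 ± 1.81 CPM in the tatcre libraries (-0.02 on the log2 scale, edgeR adjusted p = 0.84). Rabl3 had 15.3 ± 1.71 and 11.8 ± 1.44 CPM (-0.37 on the log2 scale, edgeR adjusted p = 0.063). Pi4ka shares its peak with Snap29 and has no match in its own window, and Ap2m1, Mrpl40 and Itsn1 have none in theirs.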

How the data were processed

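The submitters' processing notes list MACS2, HTSeq, SAMtools, TopHat2 and Trimmomatic, and mm10. For versions, annotation, strand setting of the counting, ChIP control and peak threshold: not given in the sources used here. How reads of overlapping genes were counted is therefore unknown. The authors deposited raw counts per gene for RNA and start and end positions for peaks, without scores. Chromosome lengths came from GenomeInfoDb 1.38.1. Shifts of up to 8 Mb in steps of 250 bp were scanned; chromosome 18 was not used in that step. The RNA test used edgeR 4.0.16 (filterByExpr, minimum count 10, minimum total 15; TMM; quasi-likelihood test; Benjamini-Hochberg threshold 0.05) over 15546 genes, and was tested on simulated data, as was the overlap code. CPM use TMM-scaled library sizes. All 45 genes at naive-only peaks, and 34 of 40 at naive peaks with a mock peak, matched a count ID. Named peaks were the 10 widest, the 10 nearest to another list, the most isolated and the 3 densest groups, given in part; named genes were the called genes, the 10 of highest mock CPM and list members. The labels do not tie libraries to mice, so p-values measure the spread between libraries. Members and lists were chosen with earlier results of these data known; naming genes on chromosome 16, and the peak and motif counts there, were decided after the scan.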

Additional observations from a re-analysis of the deposited data

Results flagged for a closer look

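The mock list holds 9 peaks on chromosome Y, between positions 2779748 and 2891993 in the coordinates of the file, while the naive and tatcre lists hold 0 there; they count among the 999 mock peaks and overlap no naive or tatcre peak.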

How the results depend on the processing

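The number of naive-only peaks, 1545, was 1918 when an overlap had to cover 50% of the naive peak, 1540 to 1542 when a gap of up to 1000 or 200 bp counted as shared, 1715 by midpoint and 1557 without the tatcre list. Without the mock list, that is naive peaks absent from tatcre alone, it was 2308. It dropped to 600 with peaks under the median width of the naive list left out. That cut takes out about 50% of all naive peaks, naive-only or not. The share at gene starts of chromosome 16 stayed at 68.5% with 5 kb and was 66.7% with tested genes only. The 16 calls became 15 with RLE scaling, 17 with DESeq2 1.42.0, 18 without the low-count filter and 11 to 15 with a library left out. With the replicate number as a block 12 genes were called. Calls over all genes moved as well, from 4215 to 4222 with RLE scaling, 4435 with DESeq2 and 4956 without the filter. They were 2958 to 3963 with a library left out and 3421 with the block. Deviations of same-numbered libraries from their group means had correlations of 0.06, -0.03 and 0.23, the last for replicate 3. Of the 6 libraries 3 correlated best with their own number, so a pairing by number stays uncertain. Yy1 kept its call throughout. Upper-quartile and library-size scaling were added after the data were seen. With 1 ChIP library per condition and no read depth, a peak absent from a list is below that list's threshold and not shown to be unbound.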
